A study of Mus musculus with 4 samples.

Results

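The natriuretic peptide system of the heart was followed through 8 genes, chosen by name from the 27998 gene rows of the single-nucleus count files. Nppa, Nppb and Nppc encode the precursors of atrial, brain and C-type natriuretic peptide (ANP, BNP and CNP). Corin and Furin encode proteases that cut these precursors into active peptides. Npr1 and Npr2 encode the receptors that make cyclic GMP, and Npr3 encodes the clearance receptor.

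ANP and BNP are hormones that heart muscle cells release when they are stretched, and they lower blood pressure and blood volume. ANP and BNP act on the Npr1 receptor, whereas CNP, a peptide mainly of vessel walls, acts on the Npr2 receptor. The Npr3 receptor has no cyclase domain and removes all of these peptides from the circulation. In the healthy heart after birth Nppa is mainly an atrial gene, and its transcript returns in ventricles under load.

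The nuclei came from the right ventricle (RV) of C57/BL6J mice of WT genotype at P21. The sample labels name no gene deletion or drug. At P7 the mice had either a sham operation (sham, 2 libraries) or an operation that joins the abdominal aorta to the inferior vena cava by a fistula and gives right ventricular volume overload (RVVO, 2 libraries). The paper describes injections of cyclosporine A or saline from the day after the operation. Whether the mice of these libraries had either is not given in the labels. The sources used here do not give whether a library was made from 1 mouse or a pool. The tests below therefore measure only the spread between these libraries. In the CPM (UMIs per 1000000 UMIs) of all kept nuclei, Xist was at 1498 and 1510 in the sham libraries and under 1 in the RVVO libraries, while Uty was at 323 and 317 in the RVVO libraries and under 1 in the sham libraries. RVVO and sham therefore differ in sex as well as surgery, and these cannot be told apart.

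After filtering, 48428 of 53090 barcodes were kept, and the libraries held 51010039 to 64739206 UMIs in all their barcodes. The median kept nucleus had 2434, 2265, 4823 and 3442 UMIs in sham 1, sham 2, RVVO 1 and RVVO 2, which is the order of every list of 4 values below. A nucleus was given a lineage by raw UMIs of 1 marker each, namely Ryr2 for cardiomyocytes (CMs), Ptprb for endothelial, Tmem108 for endocardial, Pdgfra for fibroblast, Pdgfrb for mural and Mrc1 for macrophage nuclei. This gave 13377 CM, 6909 endothelial, 2156 endocardial, 3130 fibroblast, 2030 mural and 1789 macrophage nuclei, and left 31.1% of kept nuclei unassigned and 8.17% mixed. Sums of markers that the rule did not use followed the names. The summed CPM of 5 further endocardial genes was 3676 to 4574 in endocardial nuclei and at most 631 in the other 5 lineages. Of these genes Adgrg6 did not follow, at 99.0, 131, 154 and 180 CPM in macrophage nuclei against 81.7, 141, 128 and 107 CPM in endocardial nuclei. Hmcn1 in CM nuclei was at 25.5% to 32.5% of its endocardial level. The summed CPM of 5 further CM genes was 47913 to 53398 in CM nuclei. CM transcripts were also present in the 5 lineages other than CM, where the same 5 CM genes summed to 8572 to 16264 CPM. The endocardial nuclei also had the highest level among the 6 lineages of 3 epicardial genes (Wt1, Msln and Upk3b), with summed CPM of 254.5, 582, 216 and 419. In endothelial nuclei of sham 1 and sham 2 this sum was 164 and 183. The endocardial set may therefore not be purely endocardial, and whether it held epicardial nuclei was not tested. Pairs of libraries shared 25 to 60 barcodes.

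Lineages were compared in 1 edgeR quasi-likelihood fit of the 24 sums of lineage and library with library as a block, and RVVO was compared with sham in a fit for each lineage. A gene was called at a Benjamini-Hochberg adjusted p under 0.05 over all genes tested. Of the 8 genes, 7 passed the filter on low counts in that fit, and Nppc did not. In the GRCm38 annotation Nppa, Npr1, Npr2, Corin and Furin overlap other counted genes, most of them on the opposite strand, and the sources used here do not say whether reads were counted by strand.

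**Figure D1:**
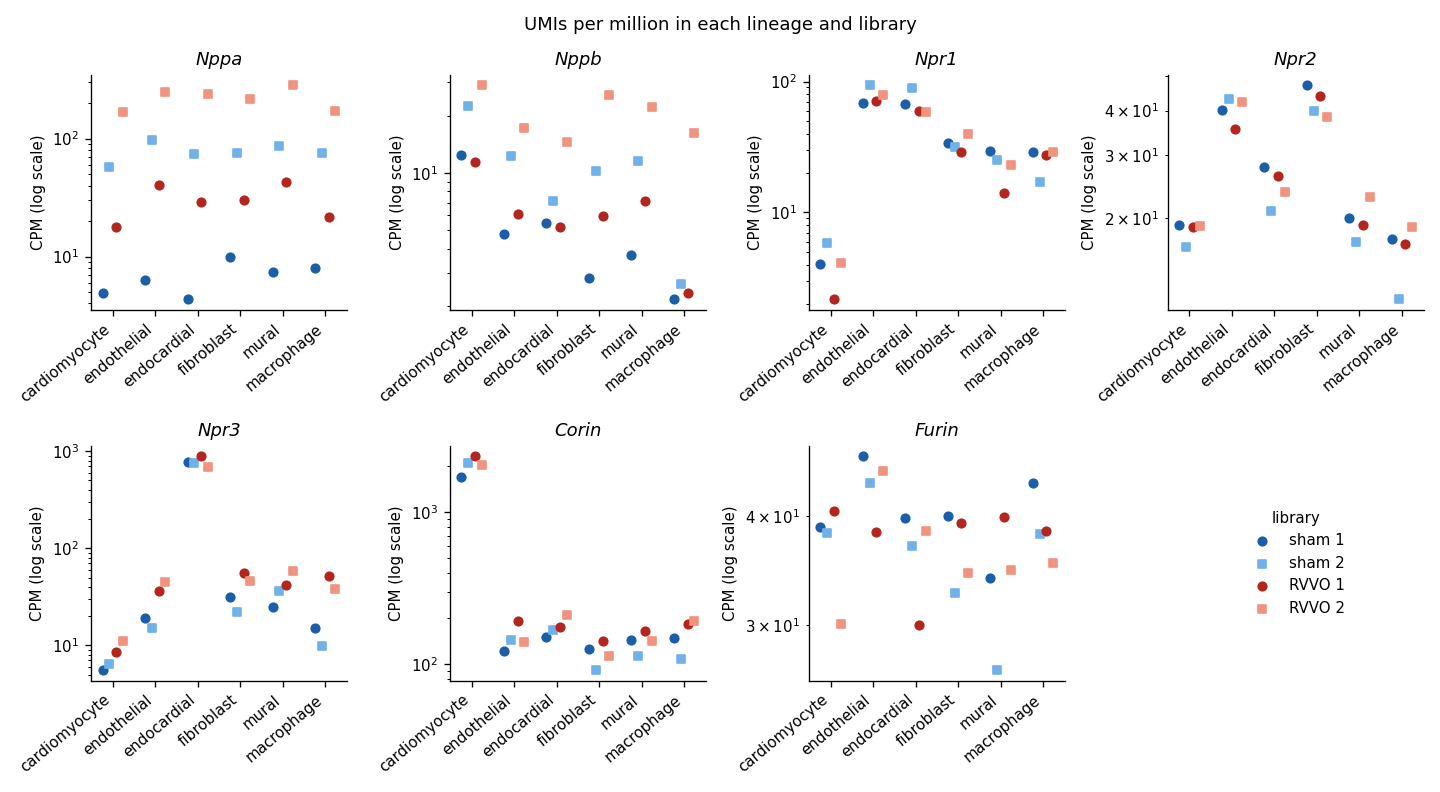
CPM (log scale) of 7 genes in the 6 lineages. Each point is 1 library, with sham in blue and RVVO in red. Corin stands out in cardiomyocytes, where it was at 1710 to 2322 CPM, and Npr3 in endocardial nuclei, where it was at 695 to 887 CPM, whereas Nppa kept the same order of libraries in every lineage.

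The 2 cardiac peptide genes lie side by side on mouse chromosome 4 (GRCm38). Nppb is at chr4:147985788-147987205 and Nppa at chr4:148000722-148002079, both on the plus strand with 13516 bases between them. Shown here are the 250 bases before the Nppa start (chr4:148000472-148000721). Also shown are 2 short windows before the Nppb RefSeq start (chr4:147985799-147985827 and chr4:147985857-147985886). All are on the plus strand and from RefSeq (GRCm38.p6). They are shown because these neighbouring genes had different distributions over the lineages, although RVVO 2 was the highest library for both. The RefSeq start of Nppa is the start given above, while that of Nppb (chr4, base 147985900) lies 112 bases inside the annotated gene, so both Nppb windows lie before the RefSeq start and within the annotated span. Capitals mark matches to short motifs known for cardiac factors.
Nppa promoter: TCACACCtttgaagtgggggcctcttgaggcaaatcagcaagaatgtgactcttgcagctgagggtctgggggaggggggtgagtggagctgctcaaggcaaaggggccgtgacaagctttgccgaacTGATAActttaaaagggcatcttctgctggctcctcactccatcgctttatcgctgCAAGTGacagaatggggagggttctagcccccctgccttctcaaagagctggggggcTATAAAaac
Nppb, GATA window: tgcagcTGATAAatcagAGATAAccccac
Nppb, TATA window: actcagccccagTATAAAaggcagaggcac

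Motifs were searched on both strands in the 250 bases before each RefSeq start of 32851 promoters. Both peptide genes held the GATA factor motif TGATAA, which 7.94% of all promoters hold. Both also held the TATA box motif TATAAA, found in 12.4% of promoters. It began 9 bases before the RefSeq start of Nppa and 31 bases before that of Nppb. The Furin and Nppc promoters held TATAAA too. The Nppb promoter had a second GATA motif, AGATAA (9.99% of promoters). The T-box motif GGTGTGA (3.33% of promoters) was found before Nppa, on the opposite strand, and so was the Nkx2-5 motif CAAGTG (11.6% of promoters), on the given strand. CAAGTG was also found before Furin. The TEAD motif CATTCC (12.6% of promoters) was found before Nppb, on the opposite strand. Most of this match lies before the GATA window shown, so it is not marked in capitals. A match is a description of these letters and not of a bound site.

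Nppa varied more between the libraries than between the lineages. Over all kept nuclei it was at 6.89, 81.3, 23.5 and 205 CPM (336, 3942, 1479 and 12512 UMIs). The sham and RVVO libraries thus overlapped, with 1 library of each group high and 1 low. In CM nuclei Nppa was at 4.94, 58.0, 17.8 and 167 CPM. In mural nuclei, where its mean was highest, it was at 7.44, 86.9, 42.6 and 282 CPM, and 1 nucleus held 87 of the 456 Nppa UMIs of the last value. The order of the libraries was the same in all 6 lineages, with RVVO 2 highest, then sham 2, RVVO 1 and sham 1. The highest library was 21.5 to 55.1 times the lowest within a lineage, while the highest lineage mean was 1.69 times the lowest.

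Heart muscle was not the lineage with the highest Nppa level. CM nuclei had the lowest mean of the 6 lineages, 62.0 ± 73.7 CPM (SD, n = 4), against 105 ± 123 CPM in mural, 98.4 ± 107 CPM in endothelial, 86.9 ± 106 CPM in endocardial, 82.5 ± 92.7 CPM in fibroblast and 69.2 ± 74.3 CPM in macrophage nuclei. Without the 87 UMIs of 1 nucleus the mural mean was 91.4 CPM, below the endothelial mean. Means of neighbours in this order differed by less than their SDs, but these SDs ignore that all lineages come from the same 4 libraries. With each library compared within itself, edgeR called CM nuclei higher than macrophage nuclei (log2 0.47 ± 0.13 (SE), adjusted p = 0.00259) and gave log2 values of -0.17, 0.14, 0.18 and -0.19 against endothelial, endocardial, fibroblast and mural nuclei, none called. Scaled by total UMIs without TMM factors, CM nuclei were at log2 values of -0.76, -0.50, -0.50, -0.81 and -0.23 against endothelial, endocardial, fibroblast, mural and macrophage nuclei, so the direction of Nppa against 3 of these lineages depended on the scaling. On this scale CM nuclei were called lower than endothelial (adjusted p = 1.6e-06), endocardial (0.000947), fibroblast (0.000697) and mural nuclei (3.5e-06), but not than macrophage nuclei (0.105). The call against macrophage nuclei was also lost without RVVO 2 (log2 0.29, adjusted p = 0.168). Further losses of this call came with no library block (0.46, adjusted p = 0.723) and with the highest UMI totals left out (0.33, adjusted p = 0.0507). With a marker minimum of 1 UMI CM nuclei were called lower than endothelial nuclei (log2 -0.28, adjusted p = 0.0242), and with the highest UMI totals left out higher than fibroblast nuclei (0.40, adjusted p = 0.0142).

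Transcripts that leak from broken cells are caught with every nucleus, so the level of each gene outside CM nuclei was set beside its level in CM nuclei of the same library. Over the 5 other lineages and 4 libraries, Nppa was at a median of 149% of its CM level (88.3% to 239%). The small CM transcript Mb had a median of 125% and Tnni3 one of 92.0%, whereas Ttn had 23.5%, Tnnt2 29.3% and Myh6 49.9%. Nppb had a median of 48.2%, and Corin one of 7.30%. Nppa was therefore spread over the lineages like Mb and the atrial gene Myl7, whose median was 170%, and Corin was held to CM nuclei more tightly than any of these. How much of each gene outside CM nuclei was free RNA was not tested.

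**Figure D2:**
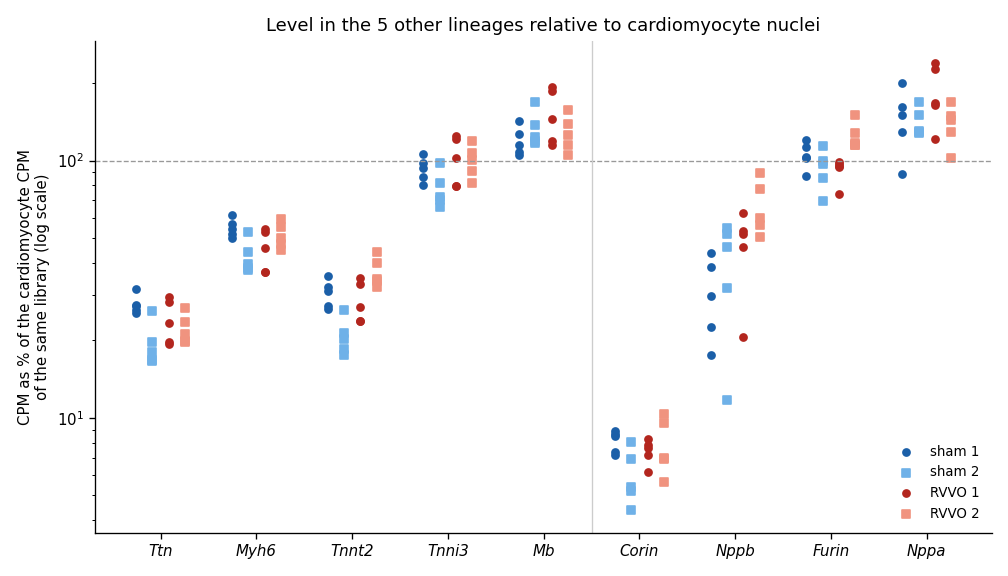
CPM in each of the 5 other lineages as a percent of the cardiomyocyte CPM of the same library (log scale, dashed line at equal level). Each point is 1 lineage in 1 library. To the left of the line are 5 cardiomyocyte genes and to the right 4 genes of the peptide system, where Corin lay between 4.38% and 10.4% and Nppa between 88.3% and 239%. Points are before TMM scaling, which moved Furin in cardiomyocytes above the other lineages and Nppa above 3 of them.

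Genes of atrial muscle moved with Nppa across the libraries. Of 5 atrial markers, Myl7, Myl4, Sln and Bmp10 summed to 5.21, 78.2, 19.7 and 130.4 CPM over all kept nuclei. They had the same order of libraries as Nppa, and Bmp10 had 0, 11, 2 and 278 UMIs. The 5th marker, Kcnj3, did not follow this order, and was at 207, 171, 223 and 147 CPM. The RVs of RVVO 2 and sham 2 thus gave more transcripts of these 4 atrial genes than those of the other libraries. For each UMI of the 4 genes there were 1.32, 1.04, 1.19 and 1.58 UMIs of Nppa over all kept nuclei. This ratio was 1.08 to 1.25 over the lineages of sham 2, 0.920 to 1.49 in RVVO 1 and 1.44 to 1.69 in RVVO 2. In sham 1, where the counts were low, it was 0.381 to 5.50. CM nuclei with at least 3 UMIs of the 4 genes numbered 0, 37, 8 and 124, and without them Nppa in CM nuclei was at 4.94, 56.2, 17.9 and 161 CPM. The part of atrial tissue or atrial RNA in the Nppa level was not tested.

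**Figure D3:**
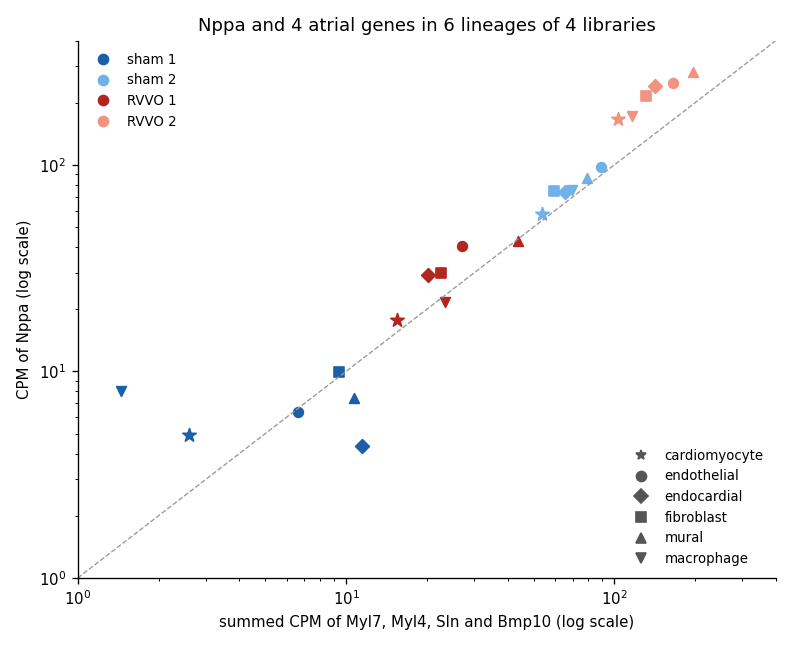
CPM of Nppa against the summed CPM of the atrial genes Myl7, Myl4, Sln and Bmp10 (both log scales). Each of the 24 points is 1 lineage (shape) in 1 library (color), and the dashed line marks equal values. Libraries lay apart along the line while the lineages of a library lay together, and the macrophage and cardiomyocyte points of sham 1 rest on 2 and 39 UMIs of the 4 genes.

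Most nuclei with Nppa had a single UMI of it, namely 264 of 290, 2430 of 3049, 928 of 1137 and 4082 of 6975 nuclei. These single UMIs were 78.6%, 61.6%, 62.7% and 32.6% of the Nppa UMIs of the libraries. At least 1 Nppa UMI was found in 2.23%, 20.9%, 13.8% and 55.2% of kept nuclei. Nuclei with 5 or more UMIs numbered 1, 29, 13 and 216 and held 4.17%, 5.07%, 7.51% and 15.7% of the Nppa UMIs of their library. A small set of nuclei rich in Nppa thus did not account for most of it in any library.

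Nppb was a CM gene in these nuclei, although not sharply. In CM nuclei it was at 12.5, 22.4, 11.4 and 28.8 CPM. The sham and RVVO values overlapped, and sham 2 and RVVO 2 were again the high libraries. Over all kept nuclei Nppb was at 8.32, 16.5, 8.86 and 24.7 CPM, and mixed nuclei held 13.5%, 15.6%, 34.9% and 21.8% of its UMIs. CM nuclei held 42.1% to 46.9% of the Nppb UMIs of a library. They were higher than endothelial nuclei by a log2 of 1.54 ± 0.18 (SE, adjusted p = 3.7e-08) and than macrophage nuclei by 2.33 ± 0.25 (adjusted p = 7.1e-09). Against endocardial, fibroblast and mural nuclei the log2 values were 1.92, 1.51 and 1.48, all called. By total UMIs the 5 values were 0.83 to 1.64 and still called. The other lineages ranged from 2.18 to 25.7 CPM, and in each of them RVVO 2 was the highest library.

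Nppc was close to the limit of detection. There were 2, 9, 3 and 7 Nppc UMIs in all kept nuclei, and no nucleus had more than 1. Endocardial nuclei had 0 in every library, which after thinning allows a share of up to 0.719%, 0.629%, 0.761% and 0.356% of them with a UMI. The gene did not pass the filter for the edgeR tests, and no difference was called in DESeq2 or with no filter on low counts. Nppc is at chr1:86666291-86670571 on the minus strand.

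Corin, a protease on the CM surface that cuts the ANP precursor, was the gene of the 8 with the largest part of its UMIs in CM nuclei. It was at 1710, 2101, 2322 and 2032 CPM there, and sham and RVVO overlapped. In the other lineages it was at 92.0 to 211 CPM. Mixed nuclei, which are not counted as a lineage, held 26.7%, 22.3%, 39.5% and 25.8% of the Corin UMIs. CM nuclei held 55.5% to 68.5% of the Corin UMIs of a library and were higher than each other lineage by a log2 of 4.17 to 4.79 (adjusted p of 1.5e-18 or less). After thinning to 1000 UMIs, 71.0%, 77.6%, 83.0% and 80.3% of CM nuclei had a Corin UMI, against 8.08% to 14.4% in the other lineages. Thinning left out 259, 484, 3 and 0 CM nuclei with fewer UMIs, and without it the shares were 84.6%, 84.8%, 97.7% and 97.3%. Corin spans 204 kb at chr5:72300025-72504473 on the minus strand.

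Furin encodes a protease of the secretory pathway that cuts the BNP and CNP precursors. In CPM before TMM scaling, Furin had the most even lineage means of the tested genes. In endothelial nuclei, with its highest mean, it was at 46.9, 43.7, 38.4 and 45.0 CPM, and in CM nuclei at 38.8, 38.2, 40.5 and 30.1 CPM. All 24 values lay between 26.6 and 46.9 CPM. With TMM factors CM nuclei were called higher than each other lineage, by log2 values of 0.35, 0.66, 0.68, 0.75 and 0.63 against endothelial, endocardial, fibroblast, mural and macrophage nuclei. By total UMIs these became -0.24, 0.02, 0.01, 0.13 and -0.07, so the direction against endothelial and macrophage nuclei flipped, with CM nuclei called lower than endothelial nuclei (adjusted p = 0.0306), and the other calls were lost. The call against endothelial nuclei was also lost without RVVO 1 (log2 0.22, adjusted p = 0.0607). After thinning to 1000 UMIs it was lost against endothelial (0.22, adjusted p = 0.136) and macrophage nuclei (0.23, adjusted p = 0.290). Furin is at chr7:80388585-80405436 on the minus strand.

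Npr1, the receptor of ANP and BNP, was highest in the cells that line vessels and chambers. It was at 69.0, 93.2, 70.5 and 78.7 CPM in endothelial nuclei and at 67.6, 89.9, 59.5 and 58.8 CPM in endocardial nuclei. These lineages were not called different (log2 0.25 ± 0.15 (SE), edgeR adjusted p = 0.21), with an adjusted p of 0.0674 to 0.558 under the alternatives. In CM nuclei it was at 4.07, 5.89, 2.18 and 4.12 CPM, the lowest of the 6 lineages. Endothelial nuclei were higher than CM nuclei by a log2 of 3.70 ± 0.17, and than fibroblast, mural and macrophage nuclei by 1.29, 1.80 and 1.67, all called. Within each of the 4 libraries fibroblast nuclei (29.1 to 39.6 CPM) were above macrophage (17.1 to 29.1 CPM) and mural nuclei (14.2 to 29.3 CPM), but neither difference was called (log2 0.38 and 0.51, adjusted p = 0.126 and 0.0681). Npr1 is at chr3:90450591-90465866 on the minus strand.

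Npr2, the receptor of CNP, was highest in fibroblast and endothelial nuclei. It was at 47.1, 39.8, 43.9 and 38.3 CPM in fibroblast nuclei and at 40.1, 43.1, 35.5 and 42.4 CPM in endothelial nuclei, and these were not called different (log2 -0.03 ± 0.10 (SE), adjusted p = 0.853). Fibroblast nuclei were higher than CM nuclei by a log2 of 0.52, than endocardial nuclei by 0.74, than mural nuclei by 1.04 and than macrophage nuclei by 1.36, all called. Endocardial, mural, CM and macrophage nuclei followed at means of 24.7, 19.8, 18.4 and 16.3 CPM, an order before TMM scaling. With TMM factors CM nuclei were above mural nuclei (log2 0.52, adjusted p = 0.000627) and at 0.22 against endocardial nuclei (adjusted p = 0.0765), and by total UMIs these values were -0.10 and -0.42. Npr2 is at chr4:43631935-43651244 on the plus strand.

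Npr3, the clearance receptor, was an endocardial gene. It was at 780, 758, 887 and 695 CPM in endocardial nuclei, and the sham and RVVO libraries overlapped. The next lineage, mural, had a mean of 40.3 ± 14.0 CPM (SD, n = 4), and CM nuclei the lowest, 7.90 ± 2.40 CPM. Endocardial nuclei were higher by a log2 of 6.05 ± 0.23 (SE) than CM nuclei, and by 4.82, 4.45, 4.33 and 4.87 than endothelial, fibroblast, mural and macrophage nuclei, all called. Although endocardial nuclei were 3.27% to 6.66% of the kept nuclei, they held 54.3% to 62.2% of the Npr3 UMIs of a library. After thinning, 48.2%, 39.8%, 53.0% and 41.0% of endocardial nuclei had an Npr3 UMI, against at most 5.48% in any other lineage. Without thinning, which left out 7, 18, 1 and 0 nuclei, the endocardial shares were 66.5%, 56.2%, 80.5% and 65.3%, and the others at most 16.9%. Npr3 is at chr15:11839896-11907287 on the minus strand.

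**Figure D4:**
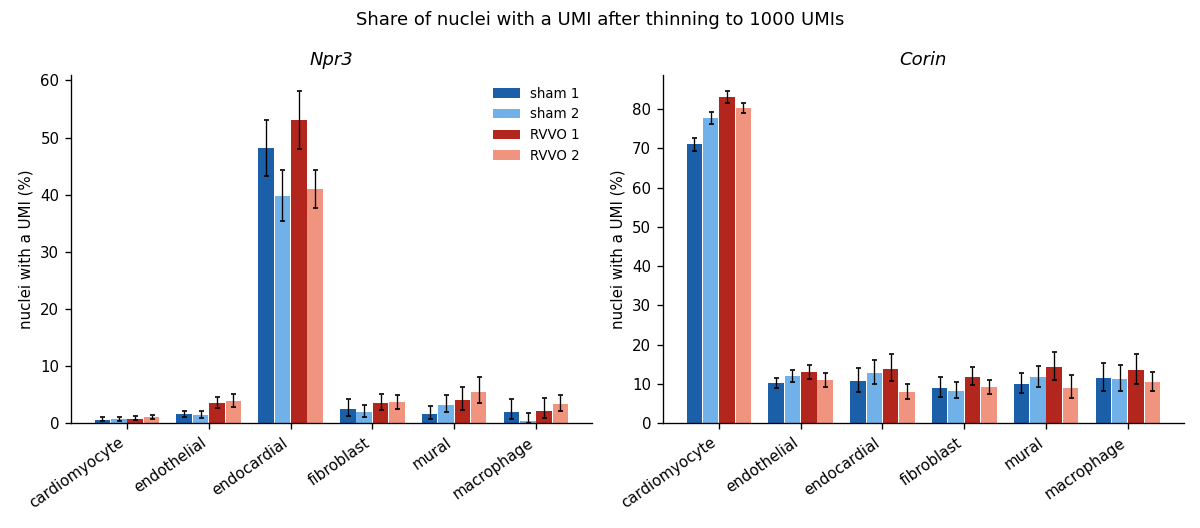
Share of nuclei with a UMI of Npr3 (left) or Corin (right) after thinning each nucleus to 1000 UMIs. Bars are libraries and whiskers are exact 95% binomial intervals, which cover counting error only. The endocardial bars of Npr3 lie between 39.8% and 53.0% and the cardiomyocyte bars of Corin between 71.0% and 83.0%.

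Over the 15 pairs of lineages, Npr1 and Npr2 were called in 11 pairs each, Npr3 in 9, Nppb and Corin in 8, Furin in 7 and Nppa in 5. CM nuclei differed from endothelial nuclei in 6 of the 7 tested genes, where 79.7% of all 13849 genes were called, and from endocardial nuclei in 5 (76% of all genes). The counts were 6 against fibroblast (74.7%), 6 against mural (72.9%) and 7 against macrophage nuclei (77.2%). Endothelial nuclei differed from endocardial nuclei in 2 genes (37.7%), from fibroblast nuclei in 4 (50.7%), from mural nuclei in 3 (36.1%) and from macrophage nuclei in 4 (47.2%). Endocardial nuclei differed from fibroblast nuclei in 4 genes (32%), from mural nuclei in 2 (31.8%) and from macrophage nuclei in 3 (38%). The remaining counts were 2 for fibroblast against mural nuclei (27.9%), 3 for fibroblast against macrophage nuclei (43.8%) and 2 for mural against macrophage nuclei (41.4%). Most of these shares lie near those of all genes, so the number of calls does not set the 8 genes apart. The count of 4 for endothelial against fibroblast nuclei was 2 without sham 2 or without RVVO 2. Those of 2 for fibroblast against mural nuclei (without RVVO 1 or RVVO 2) and for mural against macrophage nuclei (without sham 2, RVVO 1 or RVVO 2) were 1.

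Scaling mattered for CM nuclei. Without TMM factors the median of all genes in the CM comparisons fell by 0.58 to 0.70 on the log2 scale, and the share of calls that were higher in CM nuclei went from 49.9% to 51.0% down to 22.2% to 27.3%. Outside CM nuclei the median moved by over 0.1 in 1 pair, endothelial against macrophage nuclei (-0.12), where the share of higher calls went from 51.6% to 39.4%. Among the 8 genes, the split in CM nuclei against endothelial nuclei went from 3 higher and 3 lower to 2 higher and 5 lower. The genes called higher in CM nuclei under both scalings were Corin and Nppb.

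The genes with the most similar pattern over the 24 sums, by Pearson's r of log2(CPM + 1) among 11644 genes, were as follows. For Nppa they were the atrial muscle genes Myl7 (r = 0.966), Sln (0.960) and Myl4 (0.930). For Nppb they were Bri3 (0.827), the stretch-responsive gene Ankrd1 (0.820) and 4831440E17Rik (0.819), and for Corin the CM genes Kcnn2 (0.992), Palld (0.991) and Ryr2 (0.990), the last of which had assigned the CM nuclei. For Npr1 they were Tek, the angiopoietin receptor (0.983), Csgalnact1 (0.977) and Nxn (0.976). For Npr3 they were the endocardial marker Cdh11 (0.980), Ahsg (0.952) and Megf6 (0.952), and for Npr2 Stox2 (0.866), Ptgfrn (0.854) and Adarb1 (0.836). Furin had no close match, with March2 at 0.653, Timm22 at 0.618 and Ercc2 at 0.614. The values for Nppc, Bop1 at 0.738, Snrpd3 at 0.621 and Zfp318 at 0.557, rest on few UMIs. The 24 sums share 4 libraries and their depth, so these values are descriptions.

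None of the tested genes was called between RVVO and sham by edgeR in any lineage. In CM nuclei 0 of 7 were called, where 0.0477% of all 14676 genes were, and 1 had an unadjusted p under 0.05 (6.73% of all genes). The same count of 0 held in endothelial (0.11% of all genes), endocardial (0.0669%), fibroblast (0.0787%), mural (0.0615%) and macrophage nuclei (0.0689%, 6 genes tested) and in all kept nuclei (0.0394%), with 1, 0, 1, 1, 2 and 2 genes at an unadjusted p under 0.05, where 7.62%, 3.83%, 5.06%, 3.72%, 7.73% and 9.51% of all genes were. DESeq2 called 1 gene, Npr3, in endothelial nuclei and in all kept nuclei, and none in the other lineages. The median log2 value of the tested genes was 0.17 in CM, 0.24 in endothelial, 0.02 in endocardial, 0.21 in fibroblast, 0.30 in mural, 0.39 in macrophage and 0.39 in all kept nuclei, while the median of all genes lay between -0.01 and 0.01 in each. In all kept nuclei, a change in the number of cells of a lineage and in the RNA per cell cannot be told apart.

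Npr3 was the gene whose libraries separated most often. Both RVVO libraries were above both sham libraries in 5 of 6 lineages, namely in CM, endothelial, fibroblast, mural and macrophage nuclei, but not in endocardial nuclei. In these lineages 21.5% (CM), 26.8% (endothelial), 18.6% (fibroblast), 15.7% (mural) and 21.8% (macrophage) of genes with a mean CPM of at least 1 had both RVVO libraries higher. In endocardial nuclei it was 19.6%. The share of all genes that separate in 5 lineages at once was not counted. The lineages come from the same 4 libraries, so the 5 are not independent and do not set Npr3 apart. Npr3 was at 19.2, 15.004, 36.7 and 45.3 CPM in endothelial nuclei (log2 1.17 ± 0.19 (SE), edgeR adjusted p = 0.145 and DESeq2 adjusted p = 0.00943). In macrophage nuclei it was at 15.3, 9.86, 51.6 and 38.0 CPM (log2 1.80 ± 0.32, edgeR adjusted p = 0.198). These values rest on 21, 15, 110 and 127 UMIs, and 1 nucleus held 20 of the 110. After thinning to 1000 UMIs, 2.08%, 0.509%, 2.15% and 3.36% of macrophage nuclei had an Npr3 UMI, so sham 1 and RVVO 1 were close. In CPM both RVVO libraries were high in endothelial and macrophage nuclei, and neither group overlapped the other.

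In fibroblast nuclei Npr3 was at 31.5, 22.3, 55.2 and 46.0 CPM, in mural nuclei at 24.6, 36.2, 42.1 and 58.2 CPM and in CM nuclei at 5.60, 6.48, 8.54 and 10.99 CPM. The log2 values were 0.90, 0.71 and 0.67, with edgeR adjusted p-values of 0.606, 0.9999 and 0.680. In fibroblast nuclei of RVVO 1, 1 nucleus held 40 of the 205 Npr3 UMIs, and without these the level was 44.4 CPM. In endocardial nuclei the log2 value was 0.02 ± 0.20 (SE), and its sign changed without sham 2 (-0.02) and without RVVO 1 (-0.19). The difference from the endocardial value was tested in 1 fit and was not called in any lineage: it was 1.19 in endothelial (adjusted p = 0.543), 1.79 in macrophage (0.138), 0.91 in fibroblast (0.980), 0.73 in mural (0.968) and 0.68 in CM nuclei (0.584). These tests called 0%, 0.0289%, 0.00722%, 0% and 0.0289% of 13849 genes in the same order. Npr3 was the 1 tested gene with an unadjusted p under 0.05 in each. This fit and its endocardial reference were chosen after the values were seen, so these values are a description and no support for a difference. An exact permutation test of 2 against 2 libraries cannot give a p under 0.33.

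The share of endocardial nuclei among kept nuclei was also higher in the RVVO libraries, at 3.27%, 3.40%, 4.79% and 6.66%. The RVVO nuclei had more UMIs, and fewer were left unassigned (38.5%, 40.3%, 17.3% and 22.1%). Fibroblast (3.98%, 5.75%, 8.97% and 8.20%), macrophage (2.70%, 2.93%, 3.95% and 5.42%) and CM shares were higher in both RVVO libraries too, but endothelial and mural shares were not. The part of depth in these shares was not tested. The summed CPM of the 5 endocardial markers, none of which was at 0, was 278, 265, 470.5 and 555 in macrophage nuclei and 296, 308.5, 410.5 and 364 in endothelial nuclei, again higher in both RVVO libraries. In fibroblast nuclei it was 294, 303, 317 and 364, but in mural nuclei it was 193, 173, 149 and 262.5 and in CM nuclei 517, 569, 502.5 and 631, with RVVO 1 the lowest library in both. Of these markers, Cdh11 was at 29.1, 11.8, 58.6 and 83.2 CPM and Nrg1 at 2.91, 4.60, 19.7 and 48.8 CPM in macrophage nuclei. The summed endocardial markers thus moved with Npr3 in macrophage, endothelial and fibroblast nuclei but not in mural and CM nuclei. Most of the CM sum was Hmcn1, at 499, 539, 484 and 602 CPM. Taken singly, all 5 markers were higher in both RVVO libraries in macrophage nuclei, and none in mural or CM nuclei. Nrg1 was not in endothelial nuclei, nor were Hmcn1 and Pkhd1l1 in fibroblast nuclei. The part of endocardial transcripts in the difference of Npr3 was not tested.

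**Figure D5:**
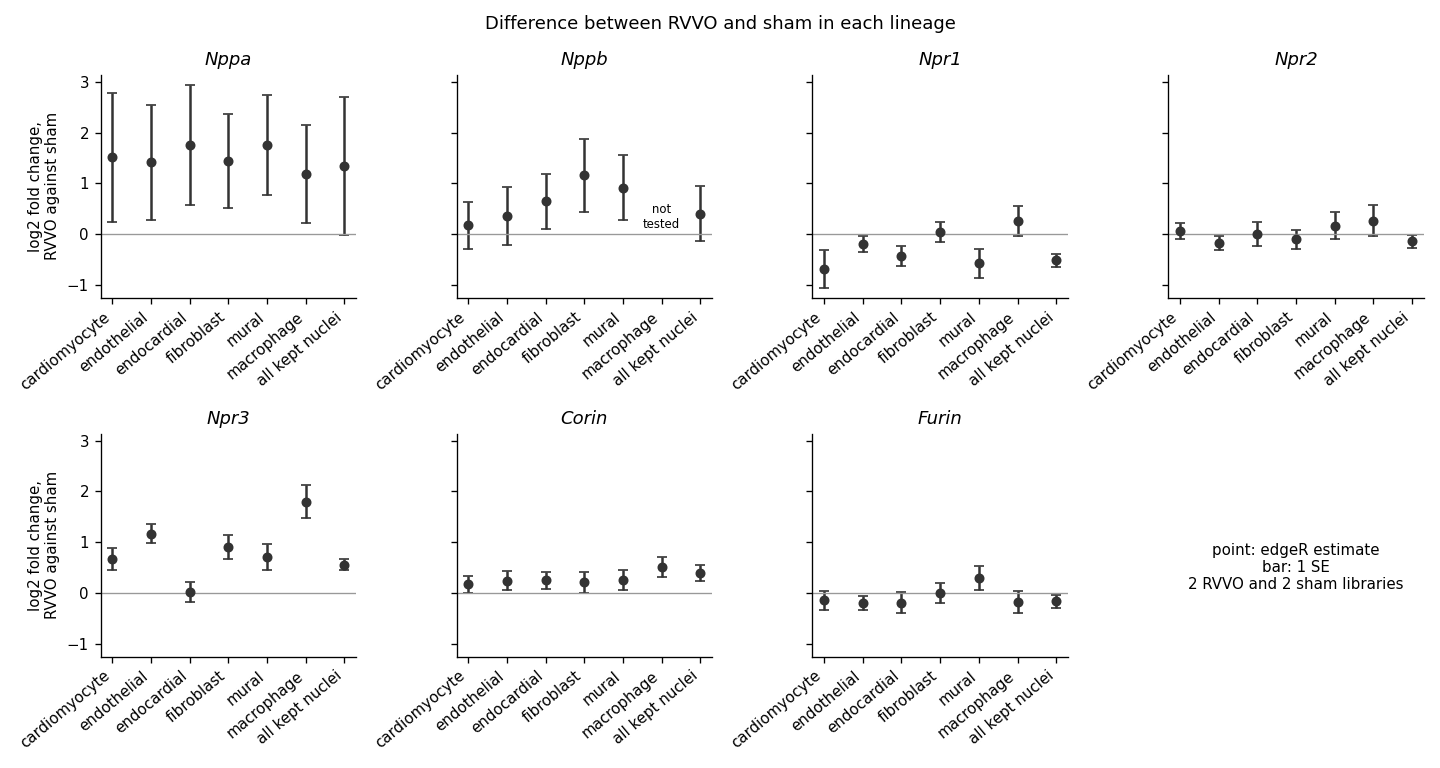
Log2 fold change of RVVO against sham from edgeR for 7 genes in the 6 lineages and in all kept nuclei. Points are estimates, bars are 1 SE, and each group has 2 libraries. Npr3 was above 0 in 5 lineages and at 0.02 in endocardial nuclei, Nppa had bars of 0.92 to 1.36 and turned negative without RVVO 2, and none of the points was called.

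Nppa had log2 values of 1.18 to 1.76 in the 6 lineages and 1.35 in all kept nuclei, with an SE of 0.92 to 1.36. Without RVVO 2 all of these turned negative, from -0.07 in mural to -0.97 in macrophage nuclei, and without sham 2 the value in mural nuclei was 4.38 and called (adjusted p = 0.0286). With the nuclei of at least 3 UMIs of the 4 atrial genes left out, the value in CM nuclei was 1.51. Nppb had a log2 value of 0.17 in CM nuclei, which was -0.18 without sham 1 and -0.59 without RVVO 2, and 1.16 in fibroblast nuclei, where it was at 2.82, 10.3, 5.92 and 25.7 CPM and 1 nucleus held 26 of the 100 UMIs of the last value. Nppa, Nppb and Npr2 overlapped between sham and RVVO in all 6 lineages.

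Npr1 was lower in both RVVO libraries than in both sham libraries in endocardial and mural nuclei, as were 12% and 13.9% of genes with a mean CPM of at least 1, and overlapped in the other lineages. In all kept nuclei it was at 31.1, 37.2, 23.1 and 25.7 CPM (log2 -0.52, edgeR adjusted p = 0.397). In these sums CM nuclei, which have little Npr1, were 23.5%, 23.5%, 29.7% and 35.3% of kept nuclei. Corin had log2 values of 0.17 in CM nuclei and 0.52 in macrophage nuclei. It was higher in both RVVO libraries in endocardial and macrophage nuclei, as were 19.6% and 21.8% of genes with a mean CPM of at least 1. Furin was higher in both RVVO libraries in mural nuclei only, as were 15.7% of such genes there.

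The other genes of the pathway were taken from 4 lists of 33 genes. Of 9 proteases and inhibitors that process or degrade the peptides, 7 or 8 were tested in each lineage, and none was called in either direction. Their median log2 value lay between -0.16 and 0.18. Pcsk6, the convertase with the highest mean of this list, was at 891, 880, 851 and 601 CPM in fibroblast nuclei (log2 -0.31, adjusted p = 0.9986). Of 13 genes for cyclic GMP kinases, soluble cyclases and phosphodiesterases, 12 or 13 were tested and none was called, with medians between -0.53 in CM and 0.21 in endocardial nuclei. In CM nuclei 4 of the 12 tested had an unadjusted p under 0.05, as did 6.73% of all genes. Prkg1, the cyclic GMP-dependent kinase, was at 5973, 6953, 7292 and 5609 CPM in mural nuclei, and the groups overlapped. Of 10 transcription factors known to act on the Nppa and Nppb promoters all were tested and none was called, nor did any have an unadjusted p under 0.05. Mef2a was at 924, 917, 980 and 1023 CPM in macrophage nuclei (log2 0.09, adjusted p = 0.944). Ostn, which encodes another ligand of Npr3, had 1 value above 0 in macrophage nuclei (0.469 CPM in RVVO 1) and was not tested. Over the 6 lineages, an unadjusted p under 0.05 was found in 4 of 46 tests of the first list, 8 of 75 of the second and 0 of 60 of the third. Of all genes, 3.72% to 7.73% had one in a lineage. In all kept nuclei the counts were 0 of 8, 3 of 13 and 0 of 10 (9.51% of all genes). DESeq2 likewise called 0 genes of the 4 lists, while with no filter on low counts edgeR called 2, Dpp4 and Pde3b, both in macrophage nuclei.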

How the data were processed

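The authors' deposited matrices hold UMI counts per gene and barcode, whole numbers with no scaling, written by Cell Ranger 5.0.0 per the file headers. The submitters' processing notes name Cell Ranger 3.0.1, STAR, Seurat 3.0.2 and GRCm38/mm10. Whether introns and strand were used was not given in these sources. No per-sample column was left unused.

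Kept barcodes had 200 or more genes and less than 10% of UMIs from mitochondria, and no doublets were removed. Ryr2 at 0.5% of UMIs or more without another marker gave CMs, and at least 2 UMIs gave the other lineages. Counts were summed per library and lineage and tested with edgeR 4.0.16 (TMM, filterByExpr, quasi-likelihood, Benjamini-Hochberg) in R 4.3.3, with DESeq2 1.42.0 as an alternative. Shares of nuclei were taken after thinning to 1000 UMIs. Sums and figures used Python 3.11.15, numpy 2.4.6, scipy 1.17.1 and pandas 2.3.3. Simulated data held the 14676 genes of the CM comparison of RVVO with sham. In them edgeR recovered 100% of changes of log2 2 and 59% of changes of log2 1, with 1.85% false calls. Every simulated gene had the same spread between libraries (dispersion 0.0342), and the changed genes were drawn from those at or above the median count. Recovery was therefore not measured for genes with fewer counts or a wider spread, such as Nppa.

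Named genes were the 8 members in the lineage of highest mean CPM, the 3 most similar genes of each (mean CPM of at least 5), and of each pathway list the called genes or else the one of highest mean CPM. Other genes were chosen after their values were seen. The members and lists were chosen with earlier results of these data known.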

Additional observations from a re-analysis of the deposited data

How the results depend on the processing

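The edgeR counts of calls rest on 2 libraries a group. Of 304 alternatives over 20 values of RVVO against sham, 276 kept the direction and the side of the threshold, 11 passed it and 17 turned the sign. Of 490 over 35 lineage values, 466 kept both, 9 lost the call, 4 gained one and 11 turned. The cause was not tested, except that without the filter edgeR's prior degrees of freedom became infinite in endothelial, fibroblast and macrophage nuclei. The marker and Ryr2 alternatives give no value for all kept nuclei. Those that leave out nuclei with atrial genes were run only for CM and all kept nuclei. Neither these nor the mitochondrial alternatives were run for pairs of lineages, and total UMIs without TMM factors were used only for such pairs.

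For RVVO against sham the count of 0 members called became 1 in endothelial nuclei and 1 in all kept nuclei with DESeq2. With no filter on low counts it was 2 in endothelial, 3 in fibroblast and 3 in macrophage nuclei. The labels do not say whether libraries of the same number share anything more, such as a batch. The correlation of same-numbered deviations was 0.0146 in CM, 0.0855 in endothelial, 0.188 in endocardial and 0.0398 in fibroblast nuclei. It was -0.0663 in mural, 0.0161 in macrophage and 0.196 in all kept nuclei. These values cannot show whether such libraries share a batch. With the replicate block the count was 1 in endocardial and 1 in fibroblast nuclei, both Nppa (log2 1.92 and 1.52, adjusted p = 0.0241 and 0.0494), and it changed no other count. Without 1 library it was 0 to 1 in mural nuclei and 0 in the other lineages.

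The pair counts became 4 for CM against macrophage, 2 for endothelial against fibroblast and 1 for mural against macrophage nuclei with total UMIs, chosen after seeing the data. For endothelial against endocardial nuclei (2) the count was 4 with DESeq2's size factors, no filter, thinning or Ryr2 at 1%, and 6 with a marker minimum of 1 UMI. With no library block it was 1 for endothelial against fibroblast, 2 for endothelial against macrophage, 1 for fibroblast against mural, 1 for fibroblast against macrophage and 0 for mural against macrophage nuclei. A marker minimum of 1 UMI gave 5 for endocardial against mural and 4 for fibroblast against mural nuclei, and one of 3 UMIs gave 2 for endothelial against fibroblast and 1 for mural against macrophage nuclei. With the highest UMI totals left out it was 4 for endocardial against mural and 1 for mural against macrophage nuclei. DESeq2's size factors gave 1 for fibroblast against mural and 1 for mural against macrophage nuclei, DESeq2 gave 1 for fibroblast against mural nuclei, and thinning gave 0 for mural against macrophage nuclei. Leaving out a library gave 2 to 3 for endothelial against fibroblast, 1 to 2 for fibroblast against mural and 1 to 2 for mural against macrophage nuclei.

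Without thinning, the difference in the share of nuclei with a UMI, RVVO minus sham, was 23.65 percentage points (9.97 after thinning to 1000 UMIs) for Nppa in mural, 3.15 (0.31) for Nppb in CM, 11.6 (2.99) for Npr3 in endocardial and 12.8 (7.30) for Corin in CM nuclei, and for Corin it was 3.69 after thinning to 2000 UMIs. It turned direction for Npr1 in endothelial nuclei, 3.08 (-0.63), and for Furin in endothelial nuclei, 1.83 (-0.30).

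Leaving out 1 library, the RVVO value of Nppa ran from -0.79 to 4.16 in CM, -0.39 to 4.37 in endothelial, -0.43 to 4.89 in endocardial, -0.53 to 3.57 in fibroblast, -0.075 to 4.38 in mural, -0.97 to 3.55 in macrophage and -0.89 to 3.96 in all kept nuclei, the lowest without RVVO 2 and the highest without sham 2. That of Npr3 in endocardial nuclei ran from -0.19 (without RVVO 1) to 0.19, that of Nppb in CM nuclei from -0.59 (without RVVO 2) to 0.67, that of Npr1 in endothelial nuclei from -0.38 to 0.011 (without sham 2) and that of Npr2 in fibroblast nuclei from -0.23 to 0.041 (without sham 1). Npr2 in endothelial against fibroblast nuclei (0.026) ran from -0.048 (without sham 2) to 0.12 and was -0.065 with total UMIs. Npr3 in endocardial nuclei was -0.000626 with a marker minimum of 3 UMIs and -0.14 with Ryr2 at 1%, and Npr2 in fibroblast nuclei 0.023 with thinning. Nppa in CM nuclei was 0.016 against endothelial nuclei with a marker minimum of 3 UMIs, 0.14 against mural nuclei with the highest totals left out, -0.016 against endocardial nuclei with Ryr2 at 1%, and with total UMIs -0.50 against endocardial, -0.50 against fibroblast and -0.23 against macrophage nuclei. Furin in CM nuclei was -0.24 against endothelial and -0.069 against macrophage nuclei with total UMIs.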
